A study of Mus musculus with 24 samples.

Results

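The comparison described here set 3 arrays of Fz4-/- mouse retinal endothelial cells grown together with Norrin-expressing HEK293 cells against 3 arrays of Fz4-/- cells grown together with control HEK293 cells. These are 6 of the 24 arrays of the study, and all 18193 genes measured were read. The probe set brightest on average over all 24 arrays stood for its gene. The groups used are Fz4-/- cells with Norrin-expressing HEK293 cells, Fz4-/- cells with control HEK293 cells, wild type cells with Norrin-expressing HEK293 cells and wild type cells with control HEK293 cells, with 3 arrays each, and for levels without a partner line 3 arrays of Fz4-/- cells on gelatin. The mice behind the endothelial lines were adults of mixed gender, with a C57Bl6/129 mixed background. Wild type lines carry the same transgene as Fz4-/- lines, a temperature-sensitive SV40 large T antigen under the interferon-gamma responsive H2Kb promoter, which extends the life of primary cells in culture. RNA was taken after culture without interferon at the temperature that inactivates the T antigen. The labels do not give the number of lines or clones per genotype, or say whether replicates are separate cultures. HEK293 is a human embryonic kidney line, and about equal parts of mouse and human RNA went onto the mouse arrays, per the labels. What Norrin itself does cannot be told apart from whatever else sets the Norrin-expressing line off from the control line.

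Norrin, encoded by Ndp, is a secreted protein unrelated in sequence to Wnt proteins that binds frizzled-4, the product of Fzd4. With the co-receptors Lrp5 and Lrp6 and the tetraspanin Tspan12 it stabilizes beta-catenin, which acts with Lef/Tcf factors on target genes such as Axin2. Loss of Norrin or of frizzled-4 leaves the retinal vasculature incomplete and its barrier leaky. Fz4-/- cells with the ligand-producing line therefore show which differences between the cultures appear where frizzled-4 is missing.

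The genes that carried the largest differences in Fz4-/- cells were chemokine genes of a single stretch of chromosome 5, with Lcn2, an iron-binding acute-phase gene, on chromosome 2. Chemokine genes of this kind are textbook targets of NF-kB, and the 250 bases before the annotated start are shown for 4 of the genes whose falls are described next, because 3 of them hold a kappa B-type motif there and the other does not. Capitals mark matches on either strand to GGG and TTCC with any 3 bases between them. Sequences and positions are those of RefSeq on GRCm38.p6, given 5′ to 3′ on the gene's strand. The windows are chr5:90890995-90891244, chr5:90903649-90903898 and chr5:90785851-90786100 on the plus strand for Cxcl1, Cxcl2 and Cxcl3, and chr2:32387740-32387989 on the minus strand for Lcn2.
Cxcl1: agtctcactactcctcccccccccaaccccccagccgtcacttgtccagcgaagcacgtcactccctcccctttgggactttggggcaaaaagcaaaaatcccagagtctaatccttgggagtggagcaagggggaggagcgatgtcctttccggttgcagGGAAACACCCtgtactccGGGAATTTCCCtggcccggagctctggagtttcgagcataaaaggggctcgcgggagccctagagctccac
Cxcl2: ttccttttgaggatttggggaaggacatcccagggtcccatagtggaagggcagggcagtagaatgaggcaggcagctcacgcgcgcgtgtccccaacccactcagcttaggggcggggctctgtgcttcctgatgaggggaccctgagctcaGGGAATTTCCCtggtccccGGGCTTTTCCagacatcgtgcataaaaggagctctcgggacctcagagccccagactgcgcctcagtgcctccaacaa
Cxcl3: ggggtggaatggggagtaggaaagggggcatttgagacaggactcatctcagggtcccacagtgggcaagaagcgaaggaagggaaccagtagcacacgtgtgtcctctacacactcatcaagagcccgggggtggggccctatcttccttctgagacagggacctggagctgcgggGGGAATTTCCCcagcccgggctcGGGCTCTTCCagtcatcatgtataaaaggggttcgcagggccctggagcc
Lcn2: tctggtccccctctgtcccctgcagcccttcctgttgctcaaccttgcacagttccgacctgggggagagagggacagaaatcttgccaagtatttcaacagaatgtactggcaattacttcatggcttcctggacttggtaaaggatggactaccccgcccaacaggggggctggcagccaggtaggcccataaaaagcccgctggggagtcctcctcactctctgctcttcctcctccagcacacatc
Cxcl1, Cxcl2 and Cxcl3 each held 3 matches that merge into 2 sites, the nearer of which ended 60, 68 and 40 bases before the annotated start. Lcn2 held 0 matches in this window, which says only that these letters are not there. Of the genes that fell in Fz4-/- cells, 34 had an entry in the promoter table and 6 held the motif (17.6%), namely Cxcl1, Cxcl2, Cxcl3, Neurl3, Tnip1 and 1 uncharacterised gene. Of the genes that rose, 33 had an entry and 3 held it (9.09%), against 832 of 14452 measured genes (5.76%). The motif was chosen after the falls were known, and a match describes the letters only.

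Fzd4 itself was read first. It was at 2.71, 2.81 and 2.75 log2 intensity in Fz4-/- cells with Norrin-expressing HEK293 cells, against 2.94, 2.83 and 2.69 in Fz4-/- cells with control HEK293 cells. Wild type cells had it at 6.35, 6.38 and 6.45 with the Norrin-expressing line and 6.18, 6.25 and 6.28 with the control line. All 6 Fz4-/- arrays thus lay below all 6 wild type arrays. Ndp was at 2.39, 2.14 and 2.02 with Norrin-expressing cells and 2.32, 2.34 and 2.13 with control cells in Fz4-/- cultures, so its mouse probe set gave no check on the label of the human line. The arrays fell into sets that coincide with genotype: the median over all probe sets was 3.21 to 3.31 in the Fz4-/- co-cultures and 3.44 to 3.52 in the wild type co-cultures, and a probe set of the dap spike-in (5′) stood at 2.60 to 3.01 in Fz4-/- and 5.43 to 8.03 in wild type co-cultures. Differences within a genotype are therefore the measure used here, and any level set across genotypes is a level across these array sets. A difference of the responses, Fz4-/- minus wild type, likewise cannot be told apart from one between array sets or between the lines used. Pan-endothelial markers had a mean level of 7.80 to 7.96 over the 28 genes in Fz4-/- cells with Norrin-expressing cells and 7.62 to 7.75 with control cells, and 1 of the 28 lay below the array median on all 3 arrays of either group. Markers of pericytes (3.74 to 3.88 against 3.80 to 3.83), of leukocytes (3.71 to 3.88 against 3.79 to 3.83), of retinal glia and neurons (4.07 to 4.20 against 4.24 to 4.33) and of retinal pigment epithelium (2.79 to 2.86 against 2.83 to 2.90) had far lower means. Of these, 4 of 11, 4 of 9, 7 of 12 and 8 of 10 lay below the array median on all 3 arrays with Norrin-expressing cells. With control cells the counts were 4, 4, 6 and 6. Means over different probe sets do not show whether such cells were absent. Mouse orthologues of genes enriched in HEK293 cells averaged 4.43 to 4.49 with Norrin-expressing cells and 4.55 to 4.60 with control cells, so the groups did not overlap in this mean, in that of the endothelial markers or in that of the retinal glia and neuron markers. In RNA of mixed cultures, fewer cells of a type and less RNA per cell cannot be told apart.

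Without frizzled-4, 83 of 18193 genes (0.456%) passed the test between Norrin-expressing and control co-cultures, 39 higher (0.214%) and 44 lower (0.242%). The test was limma's moderated test with Benjamini-Hochberg adjusted p under 0.05 over all genes. The arrays of both groups did not overlap for any of these 83 genes, but that held for 9.64% of all genes in the higher direction and 9.83% in the lower one. Of the 44 falls, 10 were 2-fold or more, and of the 39 rises, 2 were. The same contrast in wild type cells passed for 1741 genes (9.57%), of which 981 were higher (5.39%) and 760 lower (4.18%), and 182 changed 2-fold or more. At an unadjusted p under 0.05 the Fz4-/- contrast held 1554 genes. Each Fz4-/- array counted: the number of genes past the test was 50, 39 and 36 without Norrin replicate 1, 2 or 3, and 46, 36 and 37 without control replicate 1, 2 or 3. Of the 83 genes, 29 kept their call in all 6 of these fits, 15 of them lower and 14 higher. An estimate of the spread over all 24 arrays of the study gave 44 genes. With only the 6 arrays of each contrast in the fit, 162 genes passed in Fz4-/- and 761 in wild type cells, so the ratio of the counts depends on which arrays set the spread.

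Neutrophil-attracting chemokines made up the largest falls. Cxcl5 was at 3.60, 3.66 and 3.54 log2 intensity in Fz4-/- cells with Norrin-expressing HEK293 cells, against 8.17, 8.01 and 8.03 with control HEK293 cells. Arrays of a group lay close together and the groups were far apart. The difference was -4.47 ± 0.12 (SE of limma, n = 3 arrays per group, adjusted p = 6.22e-14). In wild type cells Cxcl5 stood at 3.04, 2.87 and 3.29 with Norrin-expressing cells and 7.69, 8.0 and 7.81 with control cells, a difference of -4.76 ± 0.12. The Fz4-/- response minus the wild type response was 0.30, with a 95% interval of -0.06 to 0.65 (limma, adjusted p = 0.54), and Cxcl5 was lower in both genotypes. With Norrin-expressing cells its arrays lay close to the array medians in Fz4-/- cultures and below them in wild type cultures, so the size of each fall may be a lower limit and the interval of the difference does not cover that.

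Cxcl1 and Cxcl2 bind the same receptor on neutrophils as Cxcl5. Cxcl1 was at 6.73, 6.83 and 6.78 in Fz4-/- cells with Norrin-expressing cells, against 9.38, 9.30 and 9.31 with control cells, a difference of -2.55 ± 0.10 (SE, limma adjusted p = 3.77e-11). Cxcl2 was at 2.85, 3.01 and 3.04 with Norrin-expressing cells and 5.34, 5.40 and 5.82 with control cells, a difference of -2.56 ± 0.14 (limma adjusted p = 2.4e-09). Both fell further in wild type cells, by 3.70 ± 0.10 and 4.42 ± 0.14. The difference between the genotypes passed limma's test for both, at 1.15 ± 0.15 for Cxcl1 (adjusted p = 0.000221) and 1.86 ± 0.19 for Cxcl2 (adjusted p = 4.33e-05), and with all 24 arrays in the estimate that of Cxcl1 did not pass (limma adjusted p = 0.223). In the wild type cultures Cxcl1 was at 6.91, 7.14 and 7.15 with Norrin-expressing cells and 10.66, 10.81 and 10.84 with control cells, and Cxcl2 at 3.24, 3.00 and 3.06 against 7.29, 7.61 and 7.64. With Norrin-expressing cells Cxcl2 thus lay near 3 in both genotypes, under the median of the arrays, and the genotypes stood apart in the control co-cultures.

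These chemokine genes are neighbours. In RefSeq's order of protein-coding genes, 7 genes follow each other on chromosome 5 in the order Cxcl5, Ppbp, Pf4, Cxcl3, Cxcl15, Cxcl1 and Cxcl2, and 5 of the 7 fell in Fz4-/- cells, where 0.242% of all genes did, and 6 of 7 in wild type cells, where 4.18% of all genes did. Pf4, which encodes platelet factor 4 and was chosen after its values were seen, was at 6.01, 5.99 and 6.03 with Norrin-expressing cells and 6.97, 6.95 and 7.05 with control cells in Fz4-/- cultures (-0.98 ± 0.13, limma adjusted p = 0.00106). Cxcl3, a further neutrophil chemokine, was at 1.91, 2.13 and 2.09 with Norrin-expressing cells, against 3.31, 3.02 and 3.51 with control cells (-1.23 ± 0.14, limma adjusted p = 0.000141), below the array medians with Norrin-expressing cells and around them with control cells, so its fold is uncertain. Pf4 did not pass with all 24 arrays in the estimate (limma adjusted p = 0.321). The remaining genes of the stretch lay below the array medians on all 6 arrays: Ppbp differed by -0.07 ± 0.11 and Cxcl15 by -0.07 ± 0.10. Of the 2 protein-coding genes on either side, Albfm1 (0.03), Rassf6 (0.22), Mthfd2l (0.04) and Epgn (-0.12) did not pass the test. The stretch was looked at after these falls were known, so its count describes these genes and is no test of neighbourhood.

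**Figure D1:**
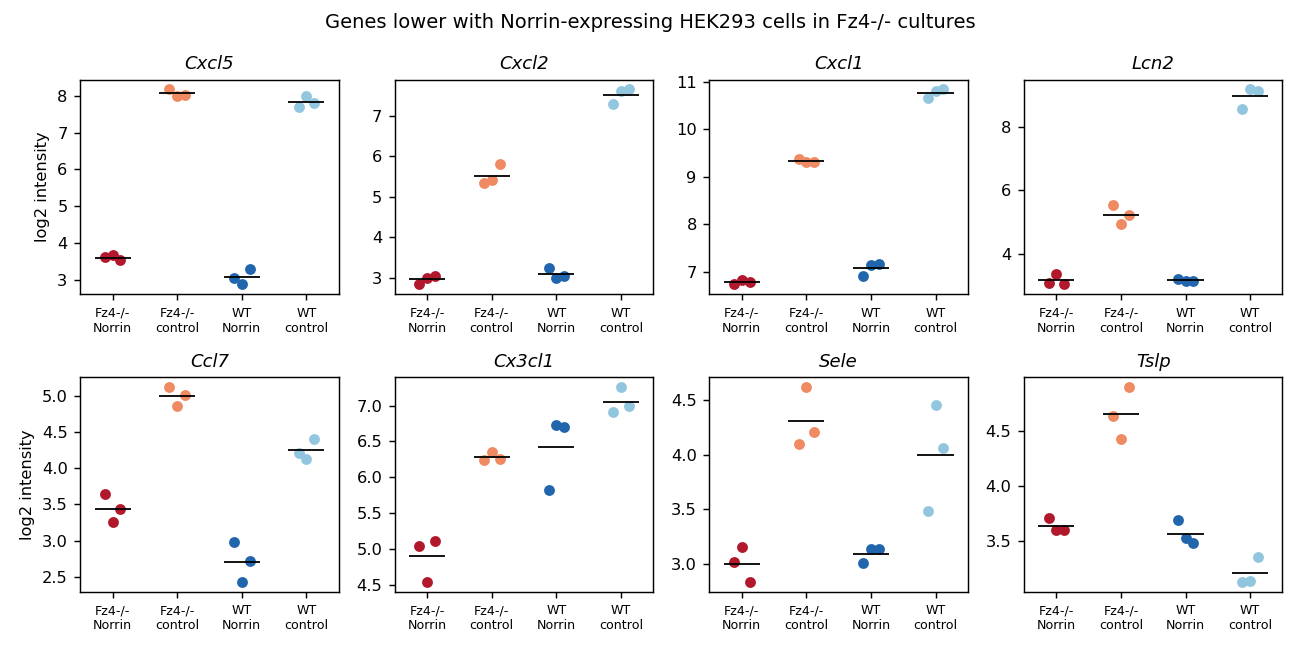
Log2 intensity (vertical axis) of 8 genes lower with Norrin-expressing than with control HEK293 cells in Fz4-/- cultures, by group (horizontal axis), with a point for each array and a line for the mean of 3 arrays. Cxcl5 lies far lower with Norrin-expressing cells in Fz4-/- and wild type cultures, Lcn2 and Cxcl2 start lower in Fz4-/- control co-cultures than in wild type ones, and Tslp is lower with Norrin-expressing cells in Fz4-/- cultures and higher with them, without passing the test, in wild type ones.

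Lcn2, which encodes a siderophore-binding protein of acute inflammation, had the largest fall in wild type cells and a smaller one without the receptor. It was at 3.08, 3.36 and 3.03 in Fz4-/- cells with Norrin-expressing cells, against 5.54, 4.92 and 5.22 with control cells, a difference of -2.07 ± 0.16 (limma adjusted p = 1.39e-06). In wild type cells it was at 3.21, 3.15 and 3.15 with Norrin-expressing cells and 8.57, 9.18 and 9.14 with control cells, a difference of -5.80 ± 0.16. The difference between the responses was 3.73 ± 0.23 (limma adjusted p = 1.1e-07), the largest in that direction among all genes past the test. All 6 arrays with Norrin-expressing cells lay between 3.03 and 3.36, near the medians of their arrays, and the genotypes stood apart in the control co-cultures. On gelatin alone, Fz4-/- cells had Lcn2 at 9.45, 10.37 and 10.22, a level across array sets. With the spread of all 24 arrays in the estimate, Lcn2 did not pass in Fz4-/- cells (limma adjusted p = 0.151).

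Ccl7, a chemokine for monocytes, was at 3.64, 3.25 and 3.44 in Fz4-/- cells with Norrin-expressing cells, against 5.12, 4.86 and 5.01 with control cells (-1.55 ± 0.14, limma adjusted p = 8.59e-06). Its wild type difference was -1.54 ± 0.14, and the genotypes differed by -0.01 with a 95% interval of -0.43 to 0.40 (limma adjusted p = 0.992). Cx3cl1, the membrane-bound chemokine fractalkine, was at 5.03, 4.54 and 5.12, against 6.23, 6.36 and 6.25 (-1.39 ± 0.20, limma adjusted p = 0.0015). The remaining 3 probe sets of Cx3cl1 gave -0.53, -0.20 and -0.20, so its size rests on the probe set used, the brightest over all 24 arrays. The probe set at -0.53 was brighter with Norrin-expressing cells (5.60 against 4.90) and dimmer with control cells (6.13 against 6.28). It did not pass in a fit over all probe sets (limma adjusted p = 0.379). Sele, which encodes E-selectin for rolling leukocytes, was at 3.02, 3.15 and 2.83 with Norrin-expressing cells and 4.10, 4.62 and 4.21 with control cells (-1.31 ± 0.19, limma adjusted p = 0.0015). In both genotypes Sele was lower, since its wild type difference was -0.91 ± 0.19 (limma adjusted p = 0.00352). Selp, which encodes P-selectin, was at 5.43, 6.10 and 5.95 with Norrin-expressing cells and 6.83, 6.71 and 6.84 with control cells (-0.96 ± 0.16, limma adjusted p = 0.00857). It fell by 2.91 ± 0.16 in wild type cells, and the difference of 1.95 ± 0.23 passed the test (limma adjusted p = 0.000126). Selp missed the threshold without Norrin replicate 1 (-0.76, limma adjusted p = 0.0510), control replicate 1 or control replicate 3 (highest adjusted p = 0.0631), and its other probe sets gave -1.05 and -0.41. With all 24 arrays in the estimate, Ccl7, Cx3cl1, Sele and Cxcl3 did not pass (limma adjusted p = 0.532, 0.621, 0.190 and 0.621), while Cxcl5, Cxcl1 and Cxcl2 did.

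Of the 31 measured NF-kB, chemokine and acute-phase genes, 11 fell in Fz4-/- cells, 1 rose and 19 did not pass, against 0.242% and 0.214% of all genes. The median difference was -0.35, against -0.02 over all genes, and 27 of the 31 were lower by any amount, as were 54.7% of all genes. Wild type cells showed 21 falls, 0 rises and a median of -0.74. The difference between the genotypes passed for 8 members in the direction of a smaller fall or a rise in Fz4-/- cells and for 1 in the other direction, against 0.874% and 1.24% of all genes. Besides the 9 genes named so far, the falls were in the leukocyte ligand Icam1 (-0.74 ± 0.14) and the pentraxin Ptx3 (-0.52 ± 0.10), both named after their values were seen. Icam1 was at 8.03, 8.38 and 8.35 with Norrin-expressing cells and 9.11, 8.87 and 8.98 with control cells. Icam1 fell short of the threshold on leaving out any array but Norrin replicate 2 (limma adjusted p from 0.0552 to 0.124), and Ptx3 without any other than Norrin replicate 3 (from 0.0804 to 0.120). The rise was in Ptgs2. Ccl2, the main monocyte chemokine, was at 9.36, 9.47 and 9.45 with Norrin-expressing cells and 10.04, 9.82 and 10.02 with control cells, and its difference of -0.53 ± 0.14 did not pass (limma adjusted p = 0.129). With only the Fz4-/- arrays compared in the fit, Ccl2 passed (limma adjusted p = 0.0277). In wild type cells Ccl2 fell by 1.94 ± 0.14, and its difference between the genotypes was 1.41 ± 0.19 (limma adjusted p = 0.00043, and 0.0586 with all 24 arrays in the estimate). Vcam1, an adhesion molecule for leukocytes named after its values were seen, was at 6.33, 6.57 and 6.66 with Norrin-expressing cells and 7.09, 6.97 and 7.26 with control cells in Fz4-/- cultures, and did not pass (-0.59, limma adjusted p = 0.182, and 0.0448 with the replicate number as a block). It passed with only the Fz4-/- arrays compared in the fit (limma adjusted p = 0.0378). Sod2, a mitochondrial superoxide dismutase, was at 6.20, 6.25 and 6.20 against 6.27, 6.52 and 6.38 in Fz4-/- cells (-0.17 ± 0.11, limma adjusted p = 0.712), while it fell by 2.02 ± 0.11 in wild type cells. With 24 arrays in the estimate, 4 members fell in Fz4-/- cells, and Icam1 and Ptx3 did not pass (limma adjusted p = 0.0675 and 0.503).

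Nfkbiz, which encodes the nuclear inhibitor family protein I kappa B zeta, was at 5.69, 6.10 and 5.75 in Fz4-/- cells with Norrin-expressing cells, against 6.93, 6.84 and 6.98 with control cells (-1.07 ± 0.13, limma adjusted p = 0.000227). The wild type difference was -1.73 ± 0.13, and the genotypes differed by 0.66 ± 0.18 (limma adjusted p = 0.068, and 0.0459 with the replicate number as a block). Its weaker probe sets gave -0.38 and -0.04. Among genes named after their values were seen, the kinase Ikbke was at 4.67, 4.99 and 5.12, against 5.59, 5.73 and 5.84 (-0.80 ± 0.14, limma adjusted p = 0.00946), and the A20-binding protein gene Tnip1 at 6.60, 6.77 and 6.90, against 7.39, 7.36 and 7.35 (-0.61 ± 0.12, limma adjusted p = 0.0313). Ikbke missed the threshold without control replicate 2 or 3 or Norrin replicate 1 (limma adjusted p from 0.0646 to 0.0819) and Tnip1 without any 1 of the 6 arrays (from 0.0559 to 0.155). Ikbke and Tnip1 did not pass with all 24 arrays in the estimate (limma adjusted p = 0.591 and 0.138).

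Some falls appeared in Fz4-/- cells with a tested difference from wild type. Tslp, an epithelial-type cytokine that acts on dendritic cells, was at 3.70, 3.59 and 3.59 with Norrin-expressing cells and 4.64, 4.43 and 4.91 with control cells in Fz4-/- cultures (-1.03 ± 0.12, limma adjusted p = 0.000265). In wild type cultures it was at 3.68, 3.52 and 3.48 with Norrin-expressing cells and 3.12, 3.13 and 3.35 with control cells (0.36 ± 0.12, limma adjusted p = 0.0767). Fz4-/- minus wild type, the responses differed by -1.39 ± 0.17 (limma adjusted p = 0.000189). Id1 and Id2 encode inhibitors of basic helix-loop-helix factors and follow BMP signalling in endothelium. Id1 was at 7.28, 7.51 and 7.42 in Fz4-/- cells with Norrin-expressing cells, against 8.13, 8.02 and 8.06 with control cells (-0.67 ± 0.11, limma adjusted p = 0.00592). Its wild type difference was 0.34 ± 0.11 (limma adjusted p = 0.0587), and the responses differed by -1.01 ± 0.15 (limma adjusted p = 0.00104). Id2 was at 9.36, 9.66 and 9.70, against 10.28, 10.14 and 10.23 (-0.64 ± 0.12, limma adjusted p = 0.0148), with a difference between the genotypes of -1.0 ± 0.17. The call of Id2 was lost without Norrin replicate 1 or any 1 control array (limma adjusted p from 0.0554 to 0.104), its dimmer probe sets gave -0.34 and -0.26, and without suffixed probe sets its difference between the genotypes was -0.08 (limma adjusted p = 0.937). With all 24 arrays in the estimate Id1 and Id2 did not pass in Fz4-/- cells (limma adjusted p = 0.438 and 0.0656), nor did the difference of Id1 (0.214).

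Matrix-degrading enzymes were read next. Mmp3, stromelysin, was at 5.10, 5.22 and 5.22 in Fz4-/- cells with Norrin-expressing cells, against 6.27, 6.00 and 6.18 with control cells (-0.97 ± 0.16, limma adjusted p = 0.00586), and the collagenase gene Mmp13 at 2.03, 1.90 and 1.97, against 2.77, 2.61 and 2.83 (-0.77 ± 0.11, limma adjusted p = 0.00131). Mmp13 lay below the array medians on all 6 arrays, so its fold is uncertain. Adamts1, a secreted metalloprotease that cleaves proteoglycans, was higher, at 6.70, 6.65 and 6.85 against 5.77, 5.86 and 6.02 (0.85 ± 0.13, limma adjusted p = 0.00208). Of 19 measured proteases and inhibitors, 1 rose, 2 fell and 16 did not pass in Fz4-/- cells, where 0.214% of all genes rose and 0.242% fell. With all 24 arrays in the estimate Adamts1 and Mmp13 did not pass (limma adjusted p = 0.0757 and 0.691).

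Fst had the largest rise in Fz4-/- cells, followed by Kit, St8sia4, Fosl2, Hlx and Ptgs2. Fst encodes follistatin, a secreted antagonist of activins. It was at 6.25, 6.35 and 6.64 with Norrin-expressing cells and 5.44, 5.08 and 5.49 with control cells in Fz4-/- cultures (1.08 ± 0.15, limma adjusted p = 0.0015). In wild type cultures it was at 6.30, 6.78 and 6.87 with Norrin-expressing cells and 7.21, 7.34 and 7.45 with control cells, a fall of -0.68 ± 0.15 (limma adjusted p = 0.00701). Fz4-/- minus wild type, the responses of Fst differed by 1.76 ± 0.22 (limma adjusted p = 0.000162), and the second probe set of Fst gave 0.94 and -1.0 in Fz4-/- and wild type cells. Ptgs2, which encodes the prostaglandin-forming enzyme COX-2, moved in the same opposed way. It was at 7.34, 7.47 and 7.63 with Norrin-expressing cells and 6.69, 6.30 and 6.77 with control cells in Fz4-/- cultures (0.89 ± 0.13, limma adjusted p = 0.0018), and at 6.37, 6.45 and 6.21 against 7.13, 6.89 and 7.0 in wild type cultures (-0.67 ± 0.13, limma adjusted p = 0.00235). The responses differed by 1.56 ± 0.18 (limma adjusted p = 0.00011), and the dimmer probe set of Ptgs2 gave 0.62 in Fz4-/- and -1.20 in wild type cells. Fst and Ptgs2 were the 2 genes called in opposite directions in the genotypes.

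Kit, the receptor for stem cell factor, was at 5.99, 6.24 and 6.35 in Fz4-/- cells with Norrin-expressing cells, against 5.39, 4.94 and 5.11 with control cells (1.05 ± 0.15, limma adjusted p = 0.00141). Its dimmer probe set gave 0.49. St8sia4, a polysialyltransferase that modifies NCAM and other surface proteins, was at 6.43, 6.60 and 6.45, against 5.46, 5.57 and 5.45 (1.00 ± 0.10, limma adjusted p = 2.3e-05). The dimmer St8sia4 probe set gave 0.22. In wild type cultures St8sia4 lay at 2.56, 2.53 and 2.48 with Norrin-expressing cells and 2.34, 2.36 and 2.39 with control cells, below the array medians, so that the tested difference of 0.84 ± 0.14 between the genotypes (limma adjusted p = 0.00198) sets a measured gene against one near the lowest intensities. Hlx, a homeobox transcription factor, was at 5.90, 5.88 and 6.30, against 5.02, 5.06 and 5.22 (0.92 ± 0.13, limma adjusted p = 0.0015), with a wild type difference of 0.09 ± 0.13. Tgfbr1, the type I TGF-beta receptor, was at 6.22, 6.05 and 6.21, against 5.48, 5.12 and 5.36 (0.84 ± 0.11, limma adjusted p = 0.00079). Its dimmer probe sets gave 0.08 and 0.30. With the mean of all probe sets, the Tgfbr1 rise was 0.40 and its difference between the genotypes 0.23, and neither passed (limma adjusted p = 0.130 and 0.582). For Kit, Hlx and Tgfbr1 the difference between the genotypes was 0.85 ± 0.21, 0.83 ± 0.18 and 0.65 ± 0.15 (limma adjusted p = 0.0352, 0.0205 and 0.0319). Without 1 array the difference fell short of the threshold for 7 choices of array for Kit (limma adjusted p from 0.0568 to 0.116), 8 for Tgfbr1 (from 0.0506 to 0.0976) and 3 for Hlx, namely Fz4-/- control replicates 1 and 2 and Norrin replicate 3 (from 0.0626 to 0.0710). With all 24 arrays in the estimate Fst, Kit, Ptgs2 and Tgfbr1 did not pass in Fz4-/- cells (limma adjusted p = 0.384, 0.0996, 0.0671 and 0.0996), nor did the differences of Fst, Kit, St8sia4, Hlx and Tgfbr1 (0.122, 0.330, 0.115, 0.0837 and 0.368).

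**Figure D2:**
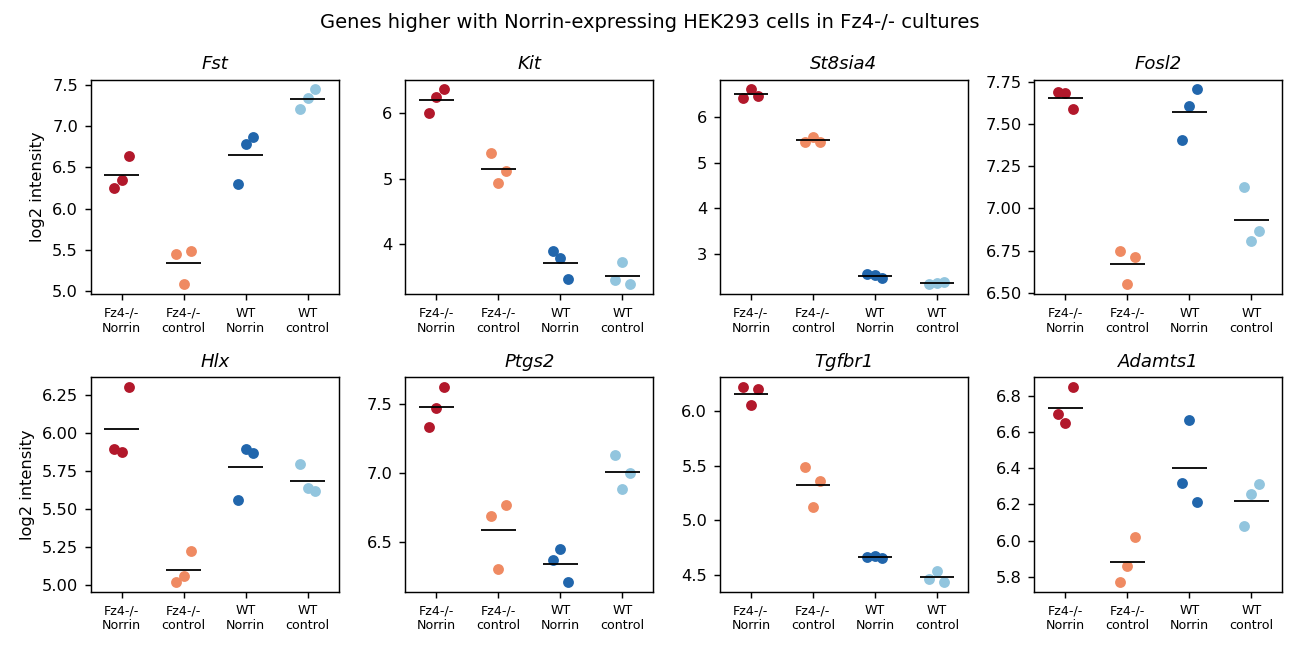
Log2 intensity (vertical axis) of 8 genes higher with Norrin-expressing than with control HEK293 cells in Fz4-/- cultures, by group (horizontal axis), with a point for each array and a line for the mean of 3 arrays. Fst and Ptgs2 are higher with Norrin-expressing cells in Fz4-/- cultures and lower with them in wild type cultures, while Fosl2 is higher in both.

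Fosl2, an AP-1 subunit, rose in both genotypes. It was at 7.69, 7.68 and 7.59 in Fz4-/- cells with Norrin-expressing cells, against 6.75, 6.55 and 6.71 with control cells (0.99 ± 0.12, limma adjusted p = 0.000227), and its wild type difference was 0.64 ± 0.12 (limma adjusted p = 0.0013). A second Fosl2 probe set gave 0.16 in Fz4-/- and -1.15 in wild type cells, so the probe sets disagree in wild type. Dmrta2, a transcription factor gene of neural development, was at 4.56, 4.72 and 4.78, against 3.79, 3.89 and 3.78 (0.86 ± 0.13, limma adjusted p = 0.0018). Kmt5b, a histone H4 methyltransferase, rose by 0.88 ± 0.15 and the linker histone gene H1f2 by 0.86 ± 0.16 (limma adjusted p = 0.00946 and 0.0137). Only 1 of 5 Kmt5b probe sets passed, and the other probe sets of H1f2 gave 0.63 and -0.14. Kmt5b lost its call without control replicate 1 or 2 or Norrin replicate 2 or 3 (limma adjusted p from 0.0635 to 0.0866), and H1f2 without control replicate 1 or 3 or Norrin replicate 2 or 3 (from 0.0689 to 0.115). Neither passed with all 24 arrays in the estimate (limma adjusted p = 0.122 and 0.547).

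The genes that passed in both genotypes were compared next. The 2 contrasts share no array, but they share 1 estimate of the spread for each gene, so their calls are not independent. Of the 44 genes lower in Fz4-/- cells, 27 were also lower in wild type cells, which is 61.4% of the Fz4-/- falls and 3.55% of the 760 wild type falls. Of all genes, 4.18% fell in wild type cells. Of the 39 genes higher in Fz4-/- cells, 21 were also higher in wild type cells, 53.8% of the Fz4-/- rises and 2.14% of the 981 wild type rises. Of all genes, 5.39% rose in wild type cells. None of the Fz4-/- falls was called a wild type rise, and 2 of the rises, Fst and Ptgs2, were called wild type falls. By any amount, 36 of the 44 falls and 33 of the 39 rises pointed the same way in wild type cells, where the median over all genes was -0.02. The difference between the genotypes passed for 32 of the 83 genes, 14 falls and 18 rises, against 2.12% of all genes. Among the 27 shared falls it passed for 7 and among the 21 shared rises for 5, and in all 12 the Fz4-/- change was the smaller. The number of shared falls was 13, 19 and 16 without Fz4-/- Norrin replicate 1, 2 or 3 and 14, 16 and 13 without Fz4-/- control replicate 1, 2 or 3. The number of shared rises was 13, 5 and 4 without those Norrin replicates, 8, 5 and 7 without those control replicates and 36 without wild type Norrin replicate 1.

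**Figure D3:**
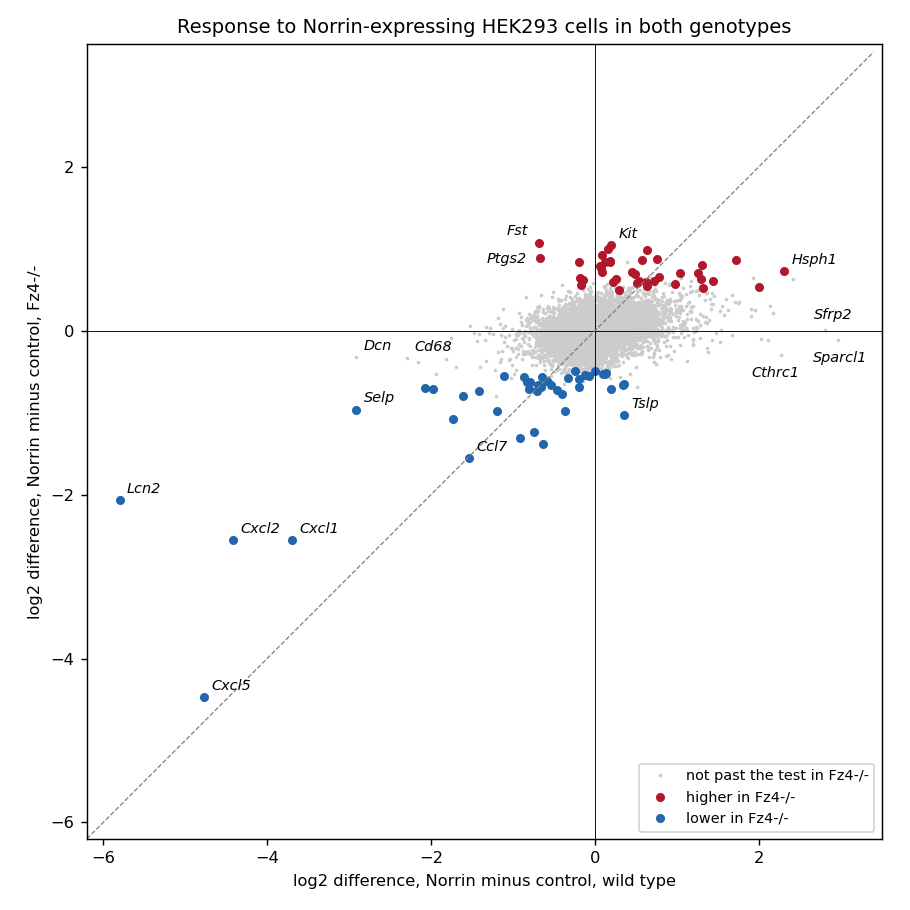
Log2 difference of Norrin-expressing minus control co-cultures in Fz4-/- cells (vertical axis) against that in wild type cells (horizontal axis) for 18193 genes, with the 83 genes past the test in Fz4-/- cells in colour and a dashed line of equal response. Cxcl5 and Ccl7 lie near the line of equal response, Lcn2, Cxcl2 and Cxcl1 lie between that line and 0, and Sparcl1 and Sfrp2 lie near 0 in Fz4-/- cells.

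The genes with the largest wild type responses were read in Fz4-/- cells next. They were picked by their wild type values, which enter the test of the difference, so these values are a description. Sparcl1, a matricellular gene, was at 2.53, 2.21 and 2.14 in Fz4-/- cells with Norrin-expressing cells, against 2.54, 2.27 and 2.42 with control cells (-0.11 ± 0.18). In wild type cells it was at 6.01, 6.50 and 6.35 with Norrin-expressing cells, against 3.42, 3.72 and 2.83 with control cells. Sfrp2, a secreted frizzled-related protein gene, was at 2.35, 2.30 and 2.22, against 2.58, 1.95 and 2.30 in Fz4-/- cells (0.02 ± 0.23), while its wild type difference was 2.81 ± 0.23. Both lay under the array medians on all 6 Fz4-/- arrays. Cthrc1, a secreted collagen repeat gene that modulates Wnt signalling, differed by -0.30 ± 0.16 in Fz4-/- cells and 2.27 ± 0.16 in wild type cells, and Nrp1, a co-receptor for VEGF and semaphorins, by 0.22 ± 0.21 and 2.17 ± 0.21. The endothelial lectin gene Clec14a was at 7.66, 7.89 and 7.86 in Fz4-/- cells with Norrin-expressing cells and 7.61, 7.51 and 7.40 with control cells, a difference of 0.30 with a 95% interval of 0.00 to 0.59 (limma adjusted p = 0.578), against 2.13 ± 0.14 in wild type cells. Clec14a was thus well measured in Fz4-/- cells and its interval stays far under the wild type value. Hsph1, a heat shock protein gene, was the 1 of these 8 rises that passed in Fz4-/- cells, at 0.73 ± 0.13 (limma adjusted p = 0.00949) and 2.31 ± 0.13 in wild type cells, and it missed the threshold without control replicate 2 or Norrin replicate 2 or 3 (from 0.0604 to 0.0919).

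Of the 8 largest wild type falls, Cxcl5, Cxcl1, Cxcl2, Lcn2 and Selp fell in Fz4-/- cells and Dcn, Cd68 and Micall2 did not pass. Dcn, which encodes the proteoglycan decorin, was at 2.98, 2.60 and 2.76 in Fz4-/- cells with Norrin-expressing cells, against 2.91, 3.30 and 3.08 with control cells (-0.32 ± 0.22). All 6 values lay below the array medians, which leaves little room for a fall of Dcn in Fz4-/- cells. Wild type cells had it at 3.98, 5.13 and 4.98 against 7.39, 7.74 and 7.69. Cd68, a lysosomal glycoprotein of macrophages, was at 7.02, 7.31 and 7.21, against 7.58, 7.41 and 7.56 in Fz4-/- cells (-0.34 ± 0.22), and fell by 2.29 ± 0.22 in wild type cells. The differences of Dcn and Cd68 between the genotypes did not pass with all 24 arrays in the estimate (limma adjusted p = 0.0820 and 0.176). Over all wild type rises, the median was 0.14 in Fz4-/- cells and 0.60 in wild type cells, and 78.5% were higher in Fz4-/- cells by any amount, against 45.3% of all genes. Over all wild type falls, the medians were -0.05 and -0.53, and 63.7% were lower in Fz4-/- cells, against 54.7% of all genes. The difference between the genotypes passed for 385 genes (2.12%), of which 336 were called in wild type cells and not in Fz4-/- cells, 18 in Fz4-/- cells and not in wild type, 14 in both and 17 in neither. That count was 241, 232 and 255 without Fz4-/- control replicates 1, 2 and 3, and 242 and 248 without Norrin replicates 2 and 3.

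**Figure D4:**
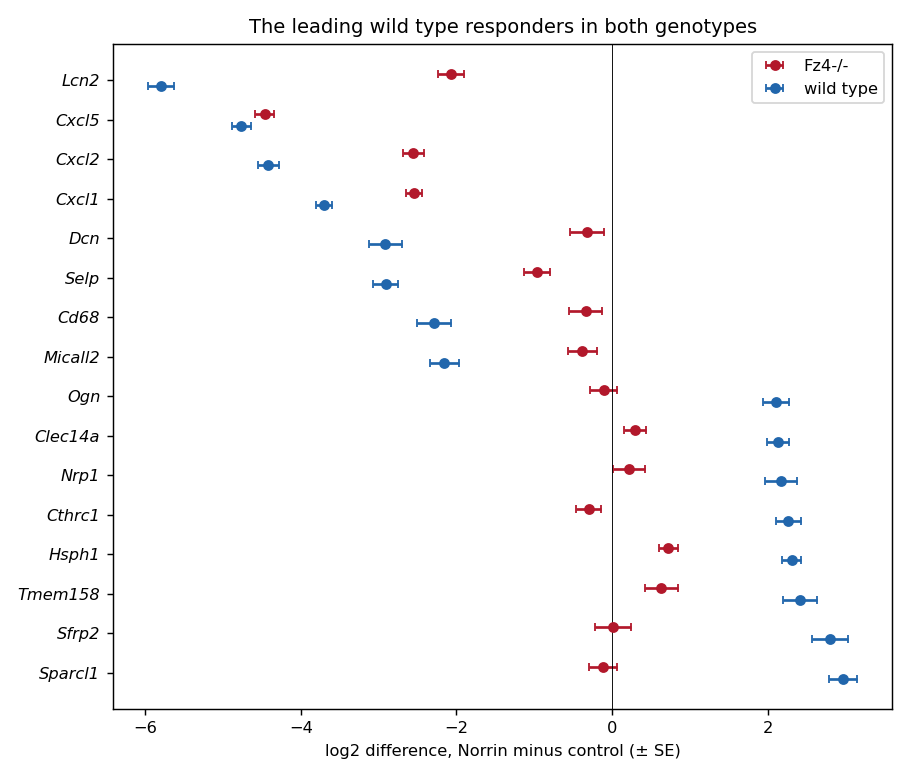
Log2 difference of Norrin-expressing minus control co-cultures (horizontal axis) in Fz4-/- and wild type cells for the 8 largest falls and the 8 largest rises of wild type cells, with points at the fitted difference and bars of 1 SE (n = 3 arrays per group). Cxcl5 stands at -4.47 in Fz4-/- and -4.76 in wild type cells, and the Fz4-/- values of Sparcl1, Sfrp2 and Ogn lie within 1 SE of 0.

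Genes of Norrin and Wnt signalling were read as lists. Their counts, and those of the barrier genes, stand against 0.214% of all genes that rose and 0.242% that fell in Fz4-/- cells. In wild type cells those shares were 5.39% and 4.18%. In the Norrin receptor complex, 0 of 5 members passed in either genotype, with Lrp5 at 0.11 ± 0.26 and Tspan12 at -0.14 ± 0.13 in Fz4-/- cells. Of 27 measured Wnt/beta-catenin target genes, 0 rose and 1 fell in Fz4-/- cells, the fall being Id2, with a median of -0.08, and 3 rose and 0 fell in wild type cells. Axin2, the commonest readout of the pathway, was at 2.80, 2.74 and 2.92 in Fz4-/- cells with Norrin-expressing cells, against 2.95, 2.90 and 2.90 with control cells (-0.10 ± 0.10, limma adjusted p = 0.867). It lay below the array medians on these arrays. Its wild type difference was 0.06 ± 0.10, so Axin2 did not set the genotypes apart. Lef1, the partner of beta-catenin on DNA, was at 4.04, 4.09 and 4.14, against 4.22, 4.31 and 4.42 (-0.23 ± 0.10, limma adjusted p = 0.547). Of the SoxF transcription factors, which are known to act downstream of Norrin in retinal vessels, Sox7 differed by -0.18 ± 0.16, Sox17 by -0.12 ± 0.17 and Sox18 by 0.12 ± 0.18 in Fz4-/- cells, and Sox18 rose by 0.92 ± 0.18 in wild type cells, with a difference between the genotypes that did not pass (-0.79 ± 0.25, limma adjusted p = 0.139). The Sox17 probe sets disagree in wild type cells, where the brighter gave 0.31 and the dimmer 1.34. In Fz4-/- cells the dimmer Sox17 probe set gave -0.03, at means of 1.85 with Norrin-expressing and 1.88 with control cells, below the array medians. Of 21 Wnt receptors and 15 secreted modulators, 0 passed in Fz4-/- cells and 4 of each list rose in wild type cells. Among barrier genes, Cldn5 (-0.04 ± 0.12), Plvap (0.11 ± 0.15) and Slc38a5 (-0.11 ± 0.13) did not pass, and 1 of 24 members, the caveola gene Cavin2, rose in Fz4-/- cells (0.52 ± 0.11), a call lost on leaving out any 1 of the 6 arrays (limma adjusted p from 0.101 to 0.224).

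Over all genes, 0.214% rose and 0.242% fell in Fz4-/- cells and 5.39% rose and 4.18% fell in wild type cells, and the counts of the lists that follow stand against those shares. The smallest change past the test in Fz4-/- cells was 0.49 in size, while in wild type cells smaller ones passed, such as Cxcl15 at -0.39. A count of 0 in Fz4-/- cells therefore does not show that no member changed. Of 20 cholesterol synthesis genes, 1 rose in Fz4-/- cells, with a median of 0.05, and 12 rose in wild type cells, with a median of 0.60, and the difference passed for 9 in the direction of a smaller value in Fz4-/- cells. The member that rose was Insig1, the sterol-regulated anchor of SREBP, at 6.76, 6.89 and 6.76 with Norrin-expressing cells and 6.10, 6.01 and 6.15 with control cells (0.72 ± 0.11, limma adjusted p = 0.00253, and 0.283 with all 24 arrays in the estimate). Scd2, a fatty acid desaturase, was the 1 of 14 fatty acid synthesis genes that rose (0.64 ± 0.11, limma adjusted p = 0.0106), and it missed the threshold without control replicate 2 or 3 or Norrin replicate 2 or 3 (from 0.0655 to 0.0785). Of 29 basement membrane and matrix genes, 0 passed in Fz4-/- cells, and 15 rose and 2 fell in wild type cells. Of 17 p53 target genes, 0 passed in Fz4-/- cells, and 1 rose and 6 fell in wild type cells. With limma, 0 of 21 actin and SRF targets, 0 of 34 cell cycle genes, 0 of 16 Notch genes, 0 of 19 arterial markers and 0 of 15 tip cell genes passed in Fz4-/- cells.

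Of 28 pan-endothelial markers, 1 rose and 0 fell in Fz4-/- cells, with a median of 0.19, against 19 rises, 2 falls and a median of 0.78 in wild type cells. By any amount 24 of the 28 were higher in Fz4-/- cells, against 45.3% of all genes, whose median there was -0.02. Fli1, an ETS factor of endothelium, was at 6.58, 6.65 and 6.78 with Norrin-expressing cells, against 6.06, 5.94 and 6.19 with control cells (0.61 ± 0.13, limma adjusted p = 0.0481), and its call was lost on leaving out any 1 of the 6 arrays (from 0.0927 to 0.292). Cdh5, which encodes VE-cadherin, was at 6.94, 7.16 and 7.05, against 6.69, 6.50 and 6.67 (0.43 ± 0.15, limma adjusted p = 0.384). These values went with the lower mean of the HEK293-enriched genes given above, and whether the share of mouse RNA differed between the groups was not tested. Of 29 interferon response genes, 26 were higher by any amount, against 45.3% of all genes, with a median of 0.22. Only Rsad2, the antiviral gene viperin, passed, at 9.56, 9.78 and 9.72 against 9.10, 9.0 and 9.02 (0.65 ± 0.11, limma adjusted p = 0.00678). Its wild type difference was -0.18 ± 0.11, and the responses differed by 0.82 ± 0.15 (limma adjusted p = 0.00568). Rsad2 lost its call without control replicate 2 or Norrin replicate 2 or 3 (from 0.0544 to 0.0601), and with all 24 arrays in the estimate neither its call nor its difference passed (limma adjusted p = 0.689 and 0.632).

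**Figure D5:**
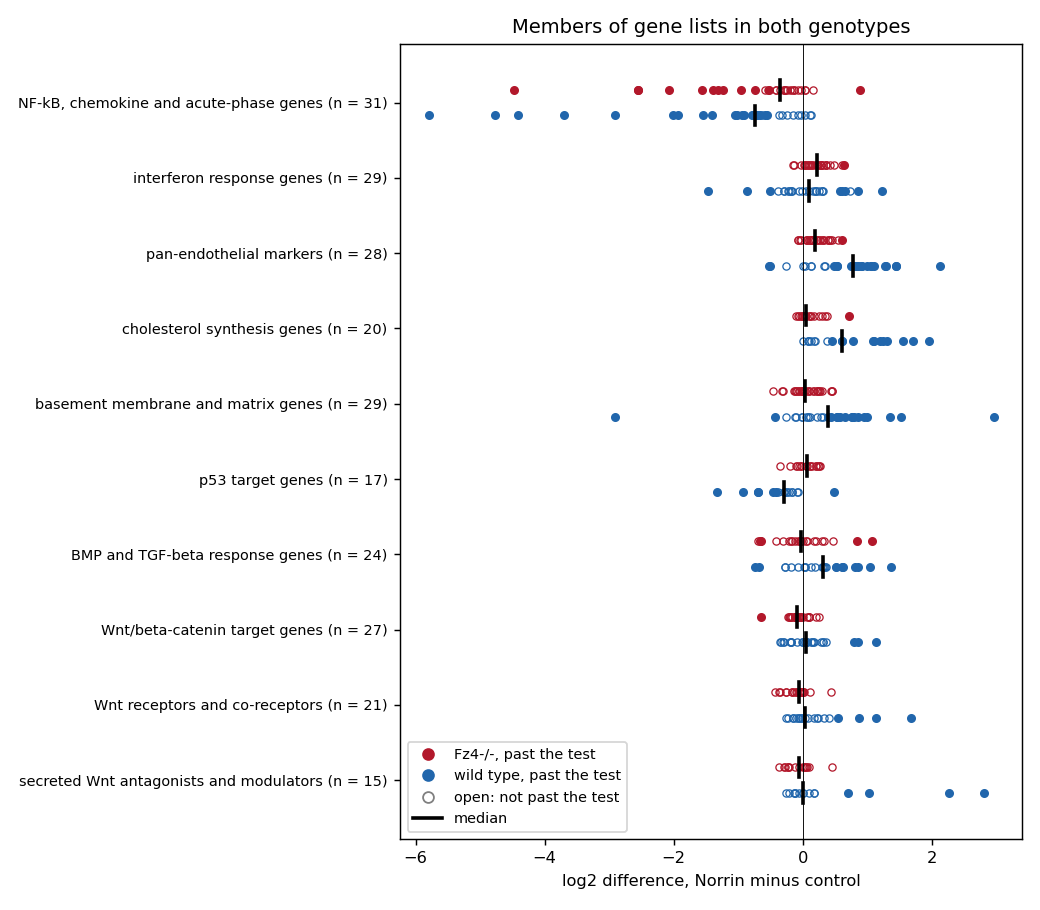
Log2 difference of Norrin-expressing minus control co-cultures (horizontal axis) for the measured members of 10 gene lists in Fz4-/- cells (upper row of each list) and wild type cells (lower row), with filled points for genes past the test and a bar at the median. In Fz4-/- cells 11 NF-kB, chemokine and acute-phase genes fell, while cholesterol, endothelial and matrix genes, higher in wild type cells, mostly lie near 0.

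Single members of further lists passed. Of 24 BMP and TGF-beta response genes, Fst and Tgfbr1 rose and Id1 and Id2 fell in Fz4-/- cells, with a median of -0.03. Of 24 immediate early genes, Fosl2 rose and the growth-factor-induced genes Junb (-0.62 ± 0.12) and Ier3 (-0.56 ± 0.12) fell. Of 23 unfolded protein and amino acid stress genes, Hspa5, the chaperone BiP, rose by 0.63 ± 0.11 (limma adjusted p = 0.00857). Of 18 YAP/TAZ targets, Ccn2 rose by 0.54 ± 0.10 (limma adjusted p = 0.0197), against 2.00 ± 0.10 in wild type cells. Of 23 glycolysis and hypoxia genes, the vasodilator peptide gene Adm rose by 0.72 ± 0.13 and the phosphofructokinase gene Pfkp fell by 0.51 ± 0.11. The calls of Junb, Ier3 and Pfkp were lost on leaving out any 1 of the 6 arrays (limma adjusted p from 0.0510 to 0.165, 0.0954 to 0.194 and 0.144 to 0.229). Hspa5 lost its call without control replicate 2 or Norrin replicate 2 or 3 (from 0.0551 to 0.0780), Adm without control replicate 2 or 3 or Norrin replicate 2 or 3 (from 0.0559 to 0.110), and Ccn2 without any array other than Norrin replicate 1 (from 0.0613 to 0.152). With all 24 arrays in the estimate Junb, Ier3, Ccn2, Fli1, Cavin2 and Scd2 did not pass (limma adjusted p = 0.284, 0.199, 0.574, 0.163, 0.283 and 0.342).

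A last measure asked which of the 83 genes stood higher in rank among genes in co-culture than in Fz4-/- cells alone, since human RNA was on these arrays. The percentile of a gene on the control co-culture arrays lay over 25 points above its highest percentile on the gelatin arrays for 7 of the 83 genes (8.43%) and for 1.59% of all genes. They were Smarca1, Nefl, Ckmt1, Slco5a1, Dmrta2, Pim1 and Eno3, with rises of 53.7, 51.3, 36.7, 36.6, 29.7, 27.1 and 26.4 points, and all but Nefl and Dmrta2 are named because of this measure. Nefl, Ckmt1, Slco5a1, Pim1 and Eno3 fell with Norrin-expressing cells, so they were higher in the control co-cultures that the measure uses. The share among the 83 genes is thus partly set by how they were chosen. Nefl, a neurofilament gene on the list of HEK293-enriched genes, was at 7.13, 7.19 and 7.16 in Fz4-/- cells with Norrin-expressing cells, against 7.86, 7.78 and 7.89 with control cells, and at 5.35, 4.48 and 4.69 on gelatin. It fell by 0.68 ± 0.12 in Fz4-/- and by 0.66 ± 0.12 in wild type cells (limma adjusted p = 0.00857 and 0.00105), and its Fz4-/- call was lost without control replicate 1 or 3 or Norrin replicate 3 (from 0.0505 to 0.0631) and with all 24 arrays in the estimate (0.502). Smarca1, a chromatin remodeller, was higher by 0.60 ± 0.13 in Fz4-/- and 0.63 ± 0.13 in wild type cells, and its Fz4-/- call was lost on leaving out any 1 of the 6 arrays (limma adjusted p from 0.0677 to 0.327). How far human transcripts met these mouse probe sets was not tested. None of Cxcl5, Cxcl1, Cxcl2, Lcn2, Ccl7 and Cx3cl1 was among the 7. A gene that already stands high on the gelatin arrays has little or no room for such a rise, as with Lcn2, whose gelatin levels are given above. Absence from the 7 therefore says nothing about human RNA for such genes. In Fz4-/- cells on gelatin Cxcl5 was at 6.51, 9.51 and 9.46 and Ccl7 at 7.75, 9.85 and 9.81, each with replicate 1 below the others.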

How the data were processed

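RNA of 24 samples was hybridised to Affymetrix whole-genome mouse arrays with 45101 probe sets, and the 12 co-culture arrays were used here, with the Fz4-/- gelatin arrays for levels. The deposited log2 intensities were made by the authors with RMA, per the submitters' processing notes, and whether all arrays were normalized together is not given in the sources used here. Control probe sets (64) and probe sets with several symbols (932) or none (9160) were left out, and of the 34945 probe sets with 1 symbol the one with the highest mean stood for its gene. Of the probe sets with 1 symbol, 34741 were matched to RefSeq by gene ID. The RefSeq symbol was used where the match gave 1 symbol not used by another gene. limma 3.58.1 in R 4.3.3 fitted the 4 groups, and a gene passed at a Benjamini-Hochberg adjusted p under 0.05 over 18193 genes. The difference of the responses is Fz4-/- minus wild type in the same fit. Where nothing says that replicates are separate cultures, p-values measure the spread between arrays, which may be technical. The number of arrays limits the precision, and an exact permutation test of 3 against 3 arrays cannot go below 0.1. No arrays were identical. Same-numbered Norrin and control arrays of Fz4-/- cells did not deviate together, with correlations of -0.10, -0.19 and 0.01 (across genes). Those of wild type cells had 0.36, 0.10 and 0.25. However, wild type Norrin replicate 2 with control replicate 3 had 0.24, and Norrin replicate 3 with control replicate 2 had 0.12. The numbers thus did not set replicates 2 and 3 apart as pairs in wild type cells, and the main fit used no pairing. The fit was tested on simulated data, where it recovered 43.3% of changes of 0.5 log2 and 97.0% of changes of 1 log2 in the Fz4-/- contrast, with 3 false calls. The simulated noise was independent for each gene and array, and wild type cells had no change. Deviations shared by many genes of an array were left out, so recovery in the real arrays may differ. Promoters and motifs were read in Python 3.11.15, and figures were drawn with pandas 2.3.3 and matplotlib 3.10.9.

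Named by rule were Fzd4, Ndp, in Fz4-/- cells the 10 genes that rose most and the 10 that fell most without overlap of arrays, at most 4 called members per list, the 8 largest rises and falls of wild type cells, the 6 largest differences in each direction and a set of Norrin-related genes, with uncharacterised genes counted only. The genes, lists and tests were chosen with earlier results of these data known. Other normalizations, gene summaries, filters, variance estimates, a replicate block and leaving out each array were tried.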

Additional observations from a re-analysis of the deposited data

Results flagged for a closer look

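Each of the following genes had a response to Norrin-expressing HEK293 cells that passed limma's test of the difference between Fz4-/- and wild type cells, and the values are Fz4-/- minus wild type on the log2 scale. Genes that fell in wild type cells and had a higher value in Fz4-/- cells were Lcn2 (3.73), Dcn (2.60), Cd68 (1.95), Selp (1.95), Cxcl2 (1.86), Sod2 (1.84), Micall2 (1.77), Ccl2 (1.41), Cxcl1 (1.15) and Ikbke (0.81). Fst (1.76) and Ptgs2 (1.56) rose in Fz4-/- cells and fell in wild type cells. Kit (0.85), St8sia4 (0.84), Hlx (0.83), Rsad2 (0.82), Hspa5 (0.77), Ednrb (0.73), Neurl1b (0.70) and Tgfbr1 (0.65) rose in Fz4-/- cells and did not pass in wild type cells.

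Genes that rose in wild type cells and had a lower value in Fz4-/- cells were Sparcl1 (-3.08), Sfrp2 (-2.79), Cthrc1 (-2.56), Ogn (-2.22), Ackr3 (-2.12), Nrp1 (-1.95), Clec14a (-1.84), Tmem158 (-1.78), Hsph1 (-1.58), Ccn2 (-1.46), Fli1 (-0.84), Cavin2 (-0.80) and Scd2 (-0.66). Tslp (-1.39), Id1 (-1.01), Id2 (-1.0), Pfkp (-0.65) and Ptx3 (-0.64) fell in Fz4-/- cells and did not pass in wild type cells. On all 6 Fz4-/- arrays Dcn, Sparcl1, Sfrp2, Cthrc1 and Ogn lay below the array median. Of these 38 differences, 18 did not pass with the spread of all 24 arrays in the estimate, among them Cxcl1 (limma adjusted p = 0.223), Fst (0.122) and Id1 (0.214). Without 1 array, 10 differences fell short for some choice of array, Ednrb and Ikbke for 8 choices, Tgfbr1 for 8, Kit for 7, Fli1 and Neurl1b for 4, Hlx and Ptx3 for 3, Scd2 for 9 and Pfkp for 10. With the mean of all probe sets of a gene, the differences of Ednrb, Hspa5, Pfkp, Ptx3 and Tgfbr1 did not pass. They were 0.19, 0.44, -0.33, -0.45 and 0.23 (limma adjusted p = 0.695, 0.208, 0.324, 0.0728 and 0.582). The Fz4-/- changes of these genes did not pass in that setting either (limma adjusted p from 0.0690 to 0.610).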

How the results depend on the processing

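The 83 genes past the test in Fz4-/- cells were 53 after median centring, 52 with plain probe sets only, 44 with all 24 arrays in the fit, 162 with only the 6 arrays compared (79 of the 83 among them) and 12 with a 2-fold minimum, and 36 to 50 without 1 Fz4-/- array. In wild type cells 761 passed with only the arrays compared and 182 with a 2-fold minimum, and 1266 to 2161 without 1 array. The difference passed for 126 genes with a 2-fold minimum and 232 to 562 without 1 array. The 11 falling NF-kB, chemokine and acute-phase genes were 4 with all 24 arrays and 8 to 10 without 1 Fz4-/- array. Genes lower in both genotypes numbered 10 with all 24 arrays, 6 with a 2-fold minimum and 13 to 37 without 1 array, and genes higher in both numbered 12, 0 and 4 to 36, and 38 with only the arrays compared. With the replicate number as a block, 110 genes passed in Fz4-/- cells, 2198 in wild type cells and 550 in the difference. The numbers did not pair the Fz4-/- arrays, though, and did not set wild type replicates 2 and 3 apart as pairs. Among the named Fz4-/- changes and differences the block moved 3 across the threshold, gaining Vcam1 and the difference of Nfkbiz and losing Neurl3 (limma adjusted p = 0.0637), and changed no other call. A filter on the level in Fz4-/- cells on gelatin, chosen after seeing the data, gave 77. H1f2 was -0.14 with plain probe sets only, and the cause was not tested. Of single-gene values under the alternatives, 1895 kept their side of the threshold, 344 lost it, 10 gained it and 1 turned sign, where a gene not past the test was counted as keeping its side whatever its sign. Of the 83 genes, 11 kept their call in the 6 fits without 1 array and in 7 further settings, namely Cxcl5, Cxcl2, Cxcl1, Nfkbiz, Tslp, Mmp3, Mtmr10, Dmrta2, Hlx, Fosl2 and St8sia4.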
